A study of Mus musculus with 6 samples.

Results

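The Hoxb cluster on mouse chromosome 11 was described from 419 CpG positions that lie within chr11:96189000-96374000 (mm10) and were read in every one of the 6 libraries, out of 552338 such shared positions in the genome. They were chosen by location and by having a value in all libraries, not by their methylation. A position is the cytosine of a CpG on 1 strand. The 419 positions belong to 359 distinct CpGs, of which 60 were read on both strands. The assay was eRRBS, enhanced reduced representation bisulfite sequencing. It reads restriction fragments rich in CpGs after a treatment that turns unmethylated cytosine into a T in the reads. The level of a position is the percent of its reads that kept a C.

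The 6 libraries came from 3 kinds of blood-forming cell, each sorted from pooled bone marrow of male C57BL/6 mice aged 7 to 10 months, with 6 mice per group. KI mice were IDH1+/lsl VavCre+, and Control mice were their IDH1+/+ VavCre+ littermates. The Vav promoter drives Cre in blood cells, so Cre was present in both genotypes and the knock-in allele in KI alone. Long-term haematopoietic stem cells (LT-HSC) were Lin- Sca+ Kit+ CD150+ CD48-, short-term stem cells (ST-HSC) were Lin- Sca+ Kit+ CD150+ CD48+, and multipotent progenitors (MPP) were Lin- Sca+ Kit+ CD150-. Each combination of genotype and cell type was 1 library. Differences between libraries therefore have no replicate check. KI and Control libraries never shared a sequencing lane, and effects of lane and of genotype cannot be told apart. RNA was not analysed here, so the sorts could not be checked against marker genes.

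Hox genes encode homeodomain transcription factors that stand in clusters, and their order along the chromosome follows the order in which they act along the body axis. In the Hoxb cluster Hoxb13 lies at one end and Hoxb1 at the other. In blood, Hoxb4 is known for expanding stem cells when it is overexpressed, and a reporter of Hoxb5 marks long-term stem cells. Methylation of CpGs near a gene start often goes with silence of that gene, and the IDH1 enzyme makes 2-oxoglutarate, which the TET enzymes need to oxidise methylated cytosine. The comparisons ask how methylation across the cluster goes with the knock-in allele and with the step from LT-HSC to MPP.

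The promoters below are shown because they carry the contrast found along the cluster: an almost unmethylated one (Hoxb3os, a long non-coding RNA read from the strand opposite to Hoxb3), a largely methylated one (Gm51876, a long non-coding RNA), and one that was partly methylated and differed between libraries (Hoxb1, a homeobox gene of the developing hindbrain). Each runs from 250 bases before to 50 bases after the gene start, from RefSeq (GRCm38.p6), 5′ to 3′ on the gene's own strand. Of the 19 annotated genes in the region, 6 had an entry in the promoter table. Capitals mark the CG pairs that held a shared position.
Hoxb3os, chr11:96353345-96353644, minus strand: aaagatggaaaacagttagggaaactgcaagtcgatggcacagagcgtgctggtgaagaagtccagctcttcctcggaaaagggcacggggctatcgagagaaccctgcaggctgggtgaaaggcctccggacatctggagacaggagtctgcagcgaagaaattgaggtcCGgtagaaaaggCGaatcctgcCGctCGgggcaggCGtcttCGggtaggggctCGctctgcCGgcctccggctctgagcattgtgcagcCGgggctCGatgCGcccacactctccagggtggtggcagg
Gm51876, chr11:96269002-96269301, minus strand: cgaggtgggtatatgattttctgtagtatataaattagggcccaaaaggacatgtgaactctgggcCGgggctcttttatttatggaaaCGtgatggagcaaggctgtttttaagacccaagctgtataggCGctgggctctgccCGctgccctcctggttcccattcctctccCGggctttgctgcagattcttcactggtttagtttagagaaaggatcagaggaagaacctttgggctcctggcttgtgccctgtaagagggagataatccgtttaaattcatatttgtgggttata
Hoxb1, chr11:96365508-96365807, plus strand: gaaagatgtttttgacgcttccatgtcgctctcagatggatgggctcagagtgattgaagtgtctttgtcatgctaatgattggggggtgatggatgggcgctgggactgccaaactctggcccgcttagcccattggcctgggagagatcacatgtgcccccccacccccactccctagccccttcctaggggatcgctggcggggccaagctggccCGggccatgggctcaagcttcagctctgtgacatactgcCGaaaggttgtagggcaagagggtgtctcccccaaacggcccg

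The Hoxb3os promoter holds 19 CG pairs, the Hoxb1 promoter 10 and the Gm51876 promoter 7. Among 32851 promoters of the same length the median was 7, and 28.1%, 43.5% and 52.1% of them hold at least as many CG pairs as Hoxb3os, Hoxb1 and Gm51876. In the Hoxb3os promoter, 15 shared positions at 11 CpGs averaged 1.36%, 3.07% and 2.58% in LT-HSC, ST-HSC and MPP of KI mice, against 2.89%, 2.69% and 0.0749% in the same cell types of Control mice. Most of these positions had no methylated read in any library. The whole of this promoter lies within the RefSeq extent of Hoxb2. In the Gm51876 promoter, 5 positions averaged 73.5%, 83.5% and 60.7% in KI mice, against 69.7%, 47.9% and 74.8% in Control mice, in the same order of cell types. In the Hoxb1 promoter, 2 positions averaged 31.3%, 75.0% and 13.2% in KI mice, against 30.7%, 31.4% and 18.2% in Control mice. The Hoxb1 values rest on 16 to 19 reads per position in KI libraries and 11 to 44 in Control libraries. Promoters of Hoxb4 and Hoxb8 held no shared position.

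Coverage summed to between 38284759 and 53884467 reads in KI libraries and between 39461301 and 48966606 in Control libraries. Within the cluster the median coverage of a position was 36 to 59 reads in KI and 40 to 50 in Control, and the lowest was 10. Neighbouring positions on the same fragment share reads: the 419 positions fall into 79 runs with gaps of at most 100 bases on 1 strand, so they are not independent. At the 60 CpGs read on both strands, the strands differed on average by 4.503, 7.19 and 4.998 points in LT-HSC, ST-HSC and MPP of KI mice and by 7.85, 6.24 and 10.8 points in Control mice. The widest gap was in Control MPP at base 96287137 in Hoxb7, with 3.53% of 85 reads on the forward strand and 93.5% of 31 reads on the reverse strand. Intervals on reads below cover counting error only. They count a read once for each position it covers, so they are too narrow.

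Methylation was not even along the cluster: low stretches beside the left end of Hoxb13 and from Hoxb9 to Hoxb4 were set against a highly methylated block inside Hoxb3. The stretches below were drawn after seeing the values. From Hoxb9 to the end of Hoxb4 (chr11:96270330-96321638), 227 positions averaged 4.75%, 7.06% and 7.90% in LT-HSC, ST-HSC and MPP of KI mice, against 4.80%, 4.95% and 6.55% in Control mice. From there to the end of Hoxb3 (chr11:96321639-96347930), 44 positions averaged 84.6%, 91.6% and 95.4% in KI mice, against 84.8%, 89.7% and 86.9% in Control mice. Hoxb3 in RefSeq spans both stretches, because its extent reaches over the whole of Hoxb4. Beyond Hoxb3, on the Hoxb2 and Hoxb1 side, 88 positions averaged 10.9%, 14.8% and 17.2% in KI mice, against 8.85%, 11.3% and 12.1% in Control mice. On the Hoxb13 side of Hoxb9, 60 positions averaged 23.9%, 27.6% and 22.8% in KI mice, against 22.7%, 19.97% and 24.6% in Control mice. The 74.72 kb between Hoxb13 and Hoxb9 held 44 shared positions.

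Only 41 of the 185 windows of 1 kb held any shared position, and 26 held at least 5, with 377 positions among them. Of those 26 windows, 17 stood under 20% in every library and 5 stood over 40% in every library. The 5 were a window in Gm53, the promoter window of Gm51876 and a row of 3 windows in Hoxb3. Shares over all windows are not given here, so these counts describe the cluster alone.

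**Figure D1:**
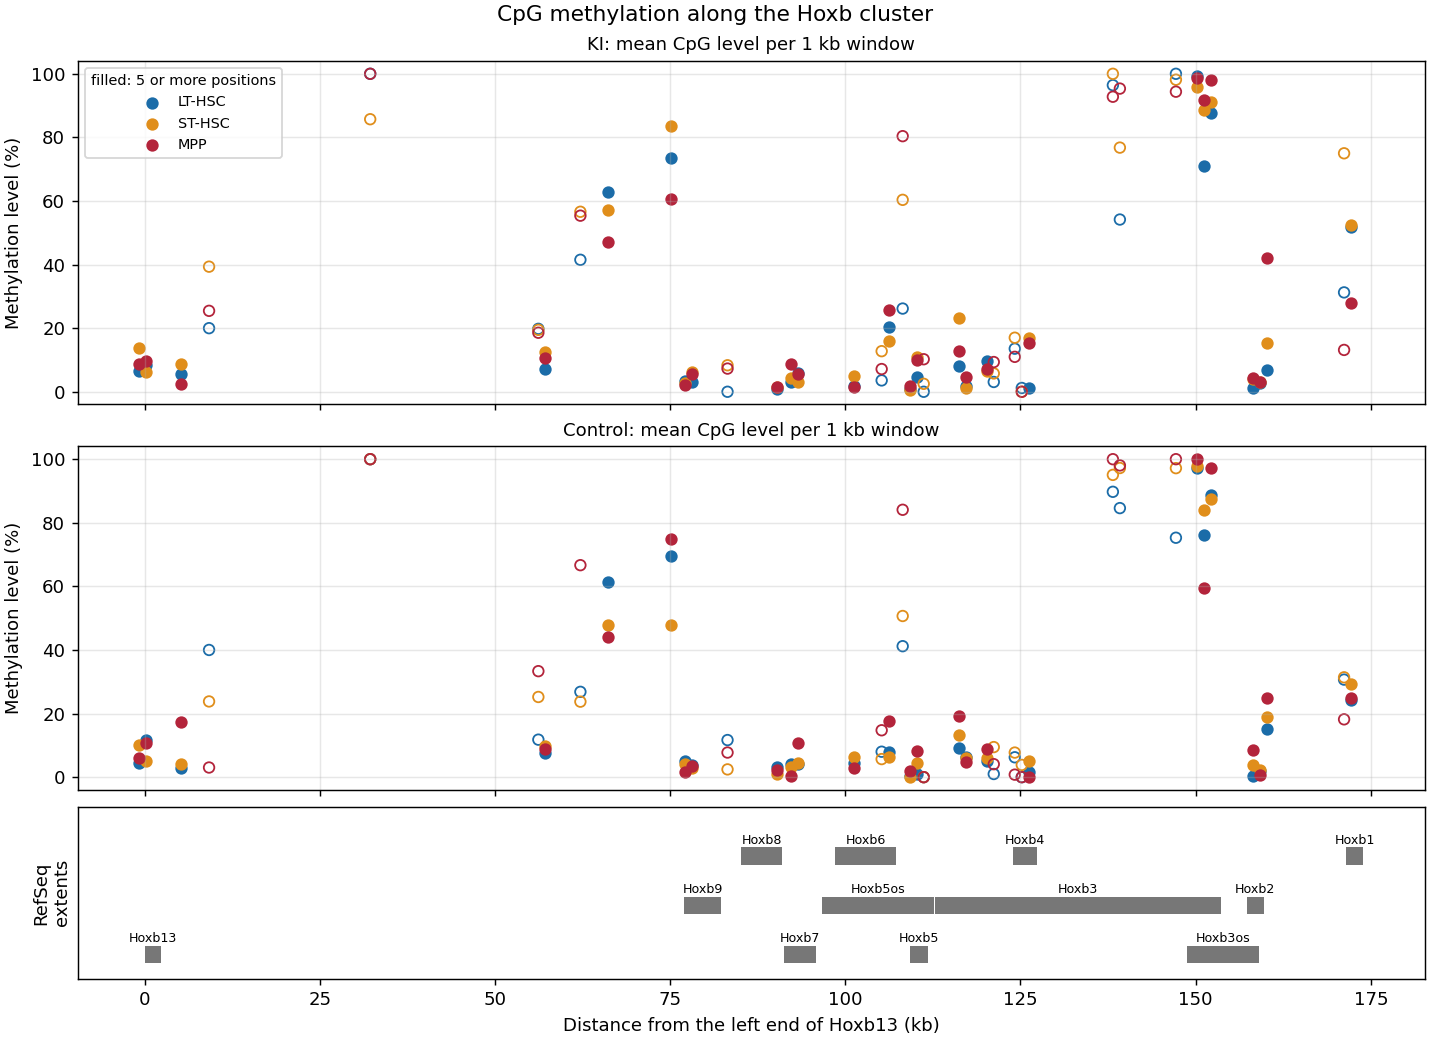
Mean CpG level (%) in each 1 kb window with a shared position, by distance from the left end of Hoxb13 (kb), in KI (top) and Control (middle), with colours for the cell type and RefSeq gene extents at the bottom. Filled points have 5 or more positions; levels are low from Hoxb9 to Hoxb4 and high in a block inside Hoxb3, in both genotypes.

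By gene, with 1000 bases on either side, 16 of 19 genes had a shared position. The pseudogene Gm11539 and the microRNA genes Mir196a-1 and Mir10a had none. Averaged over the 6 libraries, the lowest levels were at Hoxb8 (1.69%, 26 positions), whose product blocks differentiation of blood progenitors when overexpressed, Hoxb5 (3.27%, 21 positions) and Hoxb9 (3.84%, 73 positions), a gene of the trunk. Hoxb7 (5.01%, 35 positions), Hoxb4 (5.72%, 18 positions), Hoxb2 (8.29%, 74 positions) and Hoxb13 (8.44%, 18 positions) came next. Hoxb6 averaged 16.3% over 30 positions. Hoxb1 averaged 34.9% over 14 positions and Hoxb3 47.4% over 89 positions. Of the non-coding genes, Hoxb5os averaged 10.9%, Gm53 25.5%, Hoxb3os 37.4% and Gm51876 68.3%. The long non-coding RNA genes Gm30134, with 6 positions, and Gm11538, with 1 position, averaged 9.97% and 25.3%. Extents overlap, so Hoxb3 shares positions with Hoxb4 and Hoxb3os, Hoxb3os shares others with Hoxb2, and Hoxb5os shares its own with Hoxb5 and Hoxb6. The 37.4% of Hoxb3os therefore averages part of the methylated block in Hoxb3 with low positions in Hoxb2. Ranges over libraries overlapped between neighbours in the order from Hoxb8 to Hoxb13: Hoxb8 ranged from 0.923 to 3.05%, Hoxb5 from 0.496 to 6.45%, Hoxb9 from 2.82 to 4.83%, Hoxb7 from 3.15 to 8.62%, Hoxb4 from 0.0875 to 13.2%, Hoxb2 from 3.67 to 15.6% and Hoxb13 from 7.36 to 10.5%. Hoxb6, from 11.1 to 22.9%, overlapped neither Hoxb13 below it nor Hoxb1 above it, but its gap from Hoxb13 depended on the flanks. The flanks of Hoxb6 take in the 4 positions of the Hoxb5os window at chr11:96302001-96303000. Over the 26 positions of its extent alone, Hoxb6 averaged 11.1% in both LT-HSC and ST-HSC of KI mice. In Control mice these 26 positions averaged 6.46% and 6.30%, so Hoxb6 without flanks overlapped the range of Hoxb13 with flanks. With both on extents alone, the order of their means was reversed. Hoxb13 then averaged 23.4% over the 6 libraries and Hoxb6 10.003%, but Hoxb13 held only 1 position. Hoxb1, from 23.9 to 55.7%, and Hoxb3, from 44.0 to 52.0%, overlapped each other. Other places in the order also depended on the flanks. On extents alone, Hoxb8 was still lowest, with the same 26 positions, but Hoxb2 came next at 2.74% over 51 positions. Hoxb9 then averaged 3.59% over 67 positions and Hoxb5 5.07% over 12.

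Over the whole cluster, the unweighted mean level was above Control in KI libraries of each cell type, and the size and, in LT-HSC, the sign of the difference depended on which positions were kept and how they were weighted. The mean was 17.2%, 20.5% and 21.2% in LT-HSC, ST-HSC and MPP of KI mice, against 16.6%, 17.3% and 18.7% in the same cell types of Control mice. KI minus Control was 0.547, 3.18 and 2.42 points in LT-HSC, ST-HSC and MPP. Over all 552338 shared positions the same differences were 0.201, 1.27 and 1.51 points. Weighted by reads, the cluster difference in LT-HSC was -2.87 points, and without the Hoxb1 window described below it was -0.251 points. In ST-HSC it was 1.07 points at positions with 20 or more reads in every library and 1.92 points weighted by reads, and in MPP 0.517 and 0.662 points. The mean of the 3 differences was 2.05 points, and -0.0948 points weighted by reads. The KI and Control library means overlapped: they averaged 19.6 ± 2.14% in KI and 17.6 ± 1.08% in Control (SD over 3 cell types), with p = 0.3 in a two-sided exact permutation test, whose smallest possible p is 0.1. That test does not pair libraries by cell type. With pairing, exact sign flips of the 3 differences gave p = 0.25, the smallest that test can give. From LT-HSC to MPP the cluster mean differed by 3.99 points in KI and 2.12 points in Control, against 1.38 and 0.0788 points over all shared positions. Positions under 20% made up 77.3%, 70.4% and 70.2% of the cluster in LT-HSC, ST-HSC and MPP of KI mice, against 74.2%, 74.2% and 70.9% in Control mice. Over all shared positions these shares were close to that, with 75.0%, 72.9% and 72.5% in KI mice and 74.0%, 74.4% and 73.6% in Control mice.

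Set beside the other Hox clusters, Hoxb was the one with the largest share of heavily methylated CpGs, and Hoxa the one with the widest differences between libraries. Positions whose mean over libraries exceeded 80% made up 9.55% of Hoxb, 6.12% of Hoxa (490 positions), 0% of Hoxc (337 positions) and 0.176% of Hoxd (569 positions), against 17.6% of all shared positions. KI minus Control in Hoxa was 2.28, 11.2 and 8.29 points in LT-HSC, ST-HSC and MPP, wider in each cell type than the Hoxb values above. In Hoxc it was 0.425, 2.12 and 3.27 points, and in Hoxd 0.655, 2.57 and 2.10 points, in the same order. MPP minus LT-HSC in Hoxa was 13.6 points in KI and 7.62 points in Control. The differences between clusters were not tested.

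**Figure D2:**
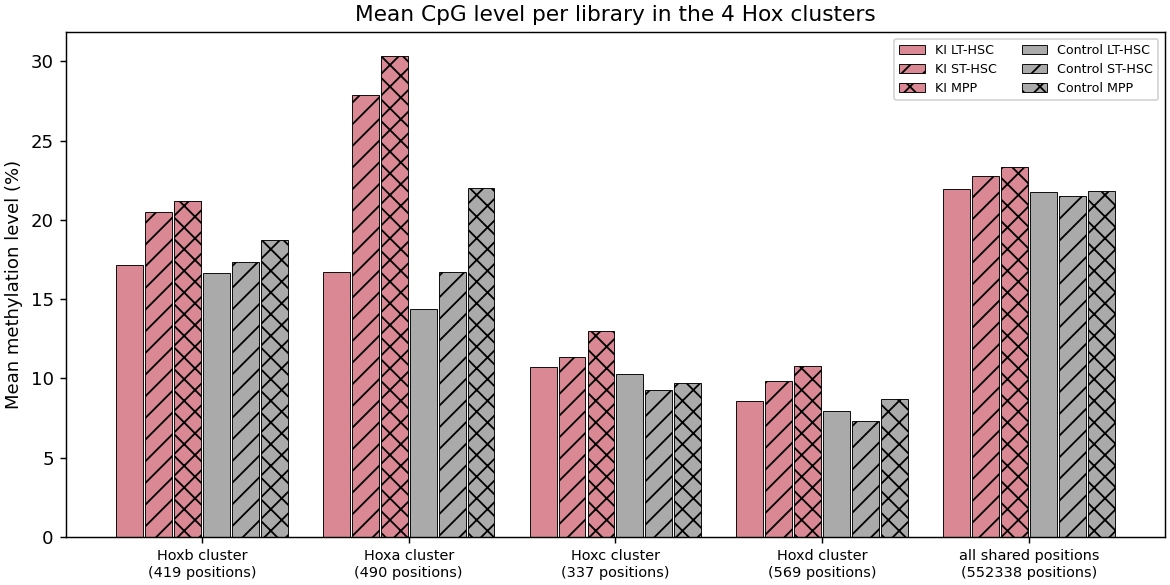
Mean CpG level (%) of each library over the shared positions of the 4 Hox clusters and of the genome, 1 bar per library with no error bar since each group is 1 library. The Hoxb bars run from 16.6 to 21.2%, and the Hoxa bars of KI ST-HSC and KI MPP stand apart at 27.9 and 30.3%.

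Single CpGs were compared between pairs of libraries with a two-sided Fisher exact test on reads, adjusted over all 552338 positions by the Benjamini-Hochberg method. A call needed 25 points or more between the libraries and an adjusted p below 0.01. Such a call compares those libraries, not the conditions. In LT-HSC, 10 cluster positions were called higher in KI (2.39%) and 9 lower (2.15%), against backgrounds of 1.28% and 1.34% of all positions. In ST-HSC, 4 were higher (0.955%) and 2 lower (0.477%), against 0.557% and 0.115%. In MPP, 21 were higher (5.01%) and 11 lower (2.63%), against 2.26% and 1.49%. The shares in the cluster were above the background in both directions in every cell type, and many calls lay on the same fragment: 10 of the 21 higher calls in MPP stood in 1 window in Hoxb3 and 6 in 1 window beside Hoxb2. Positions at 20 to 80% were also more common in the cluster. They made up 13.6 to 19.3% of it per library, against 7.51 to 9.53% of all shared positions. Whether this bears on the number of calls was not tested. The excess of higher over lower calls in MPP was absent among the 239 positions with 20 or more reads in every library, where 4 were higher and 5 lower, and at a difference of 40 points, where 6 were higher and 7 lower. With 30 or more reads, 1 was higher and 4 were lower. Shares of all positions at these settings are not given here, so these counts describe the cluster alone.

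Of 52 positions called in any cell type, 2 were called higher in KI in at least 2 cell types, 0 were called lower in at least 2, and 3 were called in opposite directions. Genome-wide, among 35429 positions called in any cell type, the same shares were 4.95%, 1.26% and 2.94%. The position at base 96366845 in Hoxb1 was 1 of the 2. In KI mice its level was 100% of 40 reads in LT-HSC, 78.3% of 23 reads in ST-HSC and 36.2% of 47 reads in MPP. In Control mice it was 39.5% of 38 reads, 54.5% of 33 reads and 1.49% of 67 reads. KI stood 60.5 points higher in LT-HSC (Fisher exact test, adjusted p = 1.18e-07) and by 34.7 points in MPP (adjusted p = 3.07e-05), and by 23.7 points in ST-HSC without passing (adjusted p = 0.694). The other was the reverse-strand position at base 96256296 in Gm53, a long non-coding RNA between Hoxb13 and Hoxb9. Its level was 53.2%, 53.5% and 48.9% in LT-HSC, ST-HSC and MPP of KI mice, against 6.25%, 1.961% and 100% in Control mice. It was called higher in KI LT-HSC and ST-HSC and called lower in KI MPP (Fisher exact test, adjusted p = 0.00189), where Control MPP had 18 reads.

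Between MPP and LT-HSC the calls leaned towards higher levels in MPP. In KI, 22 cluster positions were called higher in MPP (5.25%) and 4 lower (0.955%), against 1.11% and 0.388% of all positions. In Control, 26 were higher (6.21%) and 10 lower (2.39%), against 2.89% and 2.36%. Of the 22 higher calls in KI, 11 stood in the window beside Hoxb2. Another 3 stood in the Hoxb3 window at chr11:96345001-96346000 and 3 in the window next to it. In Control the most higher calls in 1 window was 4, in Hoxb7. Neighbouring positions share reads, so these calls are not independent. Of 56 positions called in either genotype, 4 were higher in both, 1 was lower in both and 1 was opposite. The shares among 35308 such positions genome-wide were 3.38%, 0.759% and 1.49%.

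The 4 that were higher in MPP in both genotypes lay in Hoxb5os, Hoxb3 and beside Hoxb2. In Hoxb5os, base 96302102 stood at 91.2% of 34 reads in MPP and 10.1% of 69 reads in LT-HSC of KI mice (Fisher exact test, adjusted p = 5.16e-13). In Control mice it stood at 100% of 21 reads in MPP and 23.5% of 81 reads in LT-HSC (adjusted p = 5.85e-09, Fisher exact test). Its neighbour at base 96302060 stood at 70.6% in MPP and 25.4% in LT-HSC of KI mice, and at 100% in MPP and 25.3% in LT-HSC of Control mice. ST-HSC lay between LT-HSC and MPP at both, with 52.6% and 58.8% in KI and 53.6% and 54.7% in Control. In Hoxb3, base 96333068 stood at 90.7% in MPP and 33.3% in LT-HSC of KI mice, and at 97.4% in MPP and 69.2% in LT-HSC of Control mice. Beside Hoxb2, base 96354676 stood at 68.5% in MPP and 19.5% in LT-HSC of KI mice, and at 66.2% in MPP and 22.2% in LT-HSC of Control mice. The position lower in MPP in both genotypes was base 96366845 in Hoxb1, with differences of -63.8 points in KI and -38.0 points in Control.

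In Hoxb5os the window mean was higher at each step along the 3 cell types in both genotypes, although the window held 4 positions and so fell short of the minimum of 5. The window (chr11:96302001-96303000), which lies between Hoxb6 and Hoxb5 and was singled out after its values were seen, averaged 26.2%, 60.4% and 80.4% in LT-HSC, ST-HSC and MPP of KI mice. It averaged 41.2%, 50.7% and 84.1% in the same cell types of Control mice. Its 2 reverse-strand positions averaged 34.6%, 65.0% and 79.9% in KI mice, against 58.0%, 47.3% and 68.2% in Control mice, so they did not follow that order in Control, where MPP had 11 reads at each. The next window (chr11:96303001-96304000) held 9 positions and stayed at or under 1.85% in every library. All 9 lie in Hoxb5os, to the left of the extent of Hoxb5.

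At the scale of 1 kb windows with at least 5 positions, no Hoxb window was at least 10 points apart between KI and Control in 1 direction in all 3 cell types. Among all 25123 windows 0.896% were that much higher in KI and 0.0517% that much lower. Between MPP and LT-HSC, 0 of 26 stood 10 points or more higher in MPP in both genotypes, against a background of 1.41%. 1 was at least 10 points lower in both, against a background of 0.362%. That window, in Gm53 (chr11:96260001-96261000, 8 positions), averaged 62.9%, 57.2% and 47.0% in LT-HSC, ST-HSC and MPP of KI mice, against 61.2%, 47.8% and 44.2% in Control mice. Without its reverse-strand position, which had 10 reads in KI LT-HSC and 16 in Control LT-HSC, MPP minus LT-HSC was -12.8 points in KI and -10.6 points in Control. At 20 or more reads fewer than 5 of its positions remained, so it was no longer counted, and the mean MPP minus LT-HSC over genotypes was -18.9 points there, against -16.5 points over all 8.

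Windows were also fitted with limma over all 6 libraries, on log2 of methylated over unmethylated reads. The spread left after the terms for genotype and cell type takes the place of replicates. For KI against Control, 0 of 26 Hoxb windows passed an adjusted p under 0.05, with 0.00796% of all windows as background. The lowest adjusted p by limma was 0.597, in the Hoxb6 window described below, with a log2 difference of 1.42 (SE 0.40), and 1 window had an unadjusted p under 0.05, as had 6.99% of all windows. For MPP against LT-HSC, 0 of 26 passed, with a background of 0%. The lowest adjusted p by limma was 0.523, in the window beside Hoxb2, with a log2 difference of 1.99 (SE 0.55). Unadjusted, 4 windows had p under 0.05, all higher in MPP, in Hoxb3 (2 windows), at Hoxb2 and beside it, against 7.44% of all windows in either direction. The median difference of the 26 windows was 1.25 points for KI minus Control and 1.14 for MPP minus LT-HSC, against 0.582 and 0.465 over all windows.

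**Figure D3:**
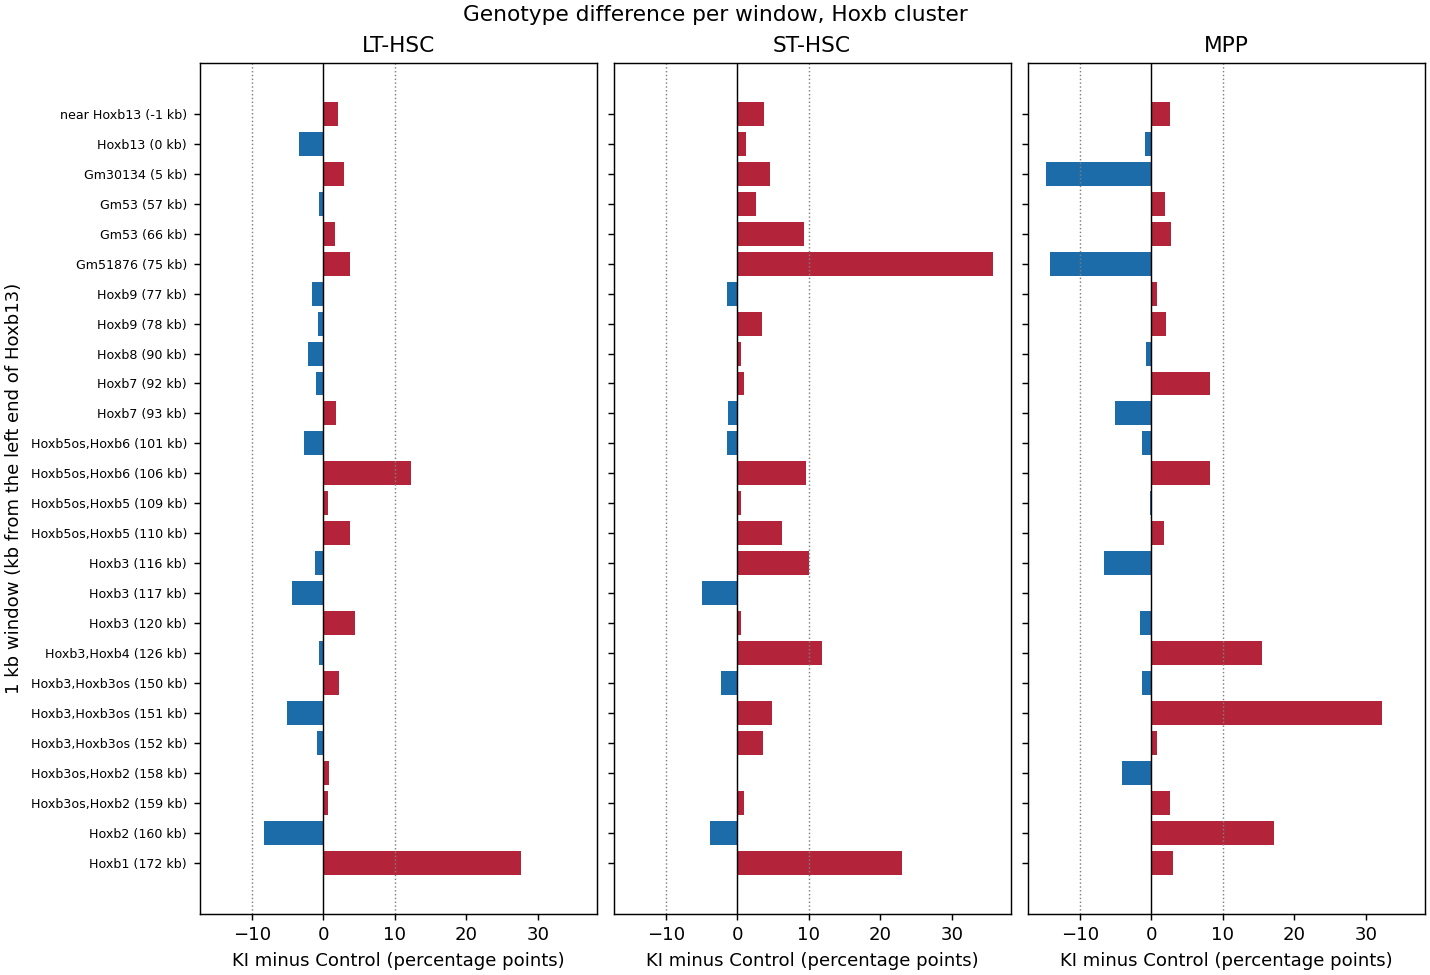
KI minus Control (percentage points) in the 26 Hoxb windows with at least 5 shared positions, ordered from Hoxb13 to Hoxb1, 1 panel per cell type, with dotted lines at 10 points either way. The widest bars are at Hoxb1 in LT-HSC (27.6) and ST-HSC (23.0), at Gm51876 in ST-HSC (35.7) and in Hoxb3 in MPP (32.2), and no window passes the line in 1 direction in all 3 panels.

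Among windows with at least 5 positions, the one with the widest mean KI minus Control difference over the 3 cell types lay in Hoxb1 (chr11:96366001-96367000, 12 positions). It averaged 52.0%, 52.5% and 27.8% in LT-HSC, ST-HSC and MPP of KI mice, against 24.3%, 29.4% and 24.8% in Control mice. KI stood above Control in LT-HSC and ST-HSC by 27.6 and 23.0 points and in MPP by 3.04 points. Pooled over reads, the level was 44.7% in KI LT-HSC (95% Wilson interval 39.98 to 49.4) and 20.4% in Control LT-HSC (17.2 to 23.8). In ST-HSC the pooled level was 39.5% in KI (34.8 to 44.5) and 23.9% in Control (20.6 to 27.5). Neighbouring positions share reads, so these intervals are too narrow. The forward-strand run of 6 positions at its right end carried most of this, with 68.2%, 76.1% and 32.6% in KI mice against 30.9%, 40.6% and 15.2% in Control mice. Within that run 2 positions stood at 100% in KI LT-HSC, while the one at base 96366842 had 0% of 38 reads. The 3 reverse-strand positions beside it rested on 12 to 14 reads in KI LT-HSC and ST-HSC. With 1000 bases on either side, the 14 positions of Hoxb1 gave a mean KI minus Control over cell types of 17.2 points (SD 13.3), or 13.4 weighted by reads.

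In Hoxb3 and Hoxb3os, the window at chr11:96345001-96346000 (13 positions) differed in MPP alone among the 3 cell types by more than 10 points. It averaged 71.1%, 88.7% and 91.7% in LT-HSC, ST-HSC and MPP of KI mice, against 76.1%, 83.9% and 59.5% in Control mice. KI MPP was 32.2 points above Control MPP, and 10 of its positions were called. From base 96345664 to base 96345699 the levels in Control MPP lay between 58.1 and 65.4% at all 9 positions, on 26 to 31 reads, so these positions share reads and the calls are not independent. The 2 reverse-strand positions of the window stood at 98.0% and 100% in KI MPP and at 100% and 75.0% in Control MPP. The cluster mean difference in MPP was 1.47 points without this window. The adjoining window (chr11:96346001-96347000, 16 positions) averaged 87.8%, 91.0% and 97.9% in KI mice, against 88.7%, 87.4% and 97.1% in Control mice, with no genotype difference above 3.62 points.

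Among windows with at least 5 positions, the one in Hoxb6 was alone in standing at least 5 points higher in KI in all 3 cell types, a mark that 2.23% of all windows passed. In this window (chr11:96300001-96301000, 13 positions), which also lies in Hoxb5os, the level was 20.2%, 16.0% and 25.7% in LT-HSC, ST-HSC and MPP of KI mice, against 7.93%, 6.34% and 17.5% in Control mice. KI minus Control was 12.3, 9.67 and 8.16 points. Coverage was thin in ST-HSC, with 157 reads over the 13 positions in KI and 271 in Control. On the forward strand, 8 positions averaged 12.0% in KI ST-HSC and 10.3% in Control ST-HSC, so that strand alone fell short of the mark. The reverse-strand runs, of 2 and 3 positions, averaged 16.0% and 26.7% in KI ST-HSC and 0% in Control ST-HSC. They had 10 to 13 reads per position in KI ST-HSC. For Hoxb6 with 1000 bases on either side, the mean difference was 3.17 points, and it was -2.63 points when positions with fewer than 20 reads in any library were left out.

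In the main window of Hoxb4, KI stood above Control in ST-HSC and MPP and not in LT-HSC. This window (chr11:96320001-96321000, 12 positions) averaged 1.08%, 17.0% and 15.4% in LT-HSC, ST-HSC and MPP of KI mice, against 1.72%, 5.18% and 0% in Control mice. Summed over the 12 positions, KI MPP had 56 methylated of 368 reads and Control MPP 0 of 183. These sums count a read once for each position it covers. In Control MPP the median was 14 reads per forward position and 17 per reverse position. An upper limit on the level drawn from 183 reads would therefore be too low. No position of this window was called by the Fisher exact test in any comparison. For the 18 positions of the gene, KI minus Control was 0.649, 8.08 and 11.4 points in the 3 cell types. A window with 2 positions (chr11:96318001-96319000), which are the 2 strands of a single CpG, stood above Control in KI libraries of all 3. The differences were 7.30, 9.27 and 10.2 points. On its forward strand alone, KI was not higher in ST-HSC, with 10% against 11.1% in Control.

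Hoxb5 stayed low and was slightly higher in KI in each cell type. It averaged 2.17%, 4.84% and 6.45% in LT-HSC, ST-HSC and MPP of KI mice, against 0.496%, 1.73% and 3.92% in Control mice, with a mean difference of 2.44 points (0.757 at 20 or more reads). MPP stood above LT-HSC by 4.27 points in KI and 3.42 points in Control. Hoxb8 and Hoxb9 stayed under 5% in all libraries. Hoxb7 averaged 4.67%, 3.15% and 6.15% in KI mice, against 3.67%, 3.78% and 8.62% in Control mice. The Control MPP value of Hoxb7 includes the position where the strands differed most. With its flanks, Hoxb13 lay between 7.36 and 10.5% in KI mice and between 7.72 and 8.03% in Control mice.

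Beside the right end of Hoxb2, a gene of hindbrain patterning, the window at chr11:96354001-96355000 (23 positions) differed most between MPP and LT-HSC in KI among windows with at least 5 positions. It averaged 6.88%, 15.3% and 42.1% in LT-HSC, ST-HSC and MPP of KI mice, against 15.2%, 19.04% and 25.03% in Control mice. MPP was above LT-HSC by 35.3 points in KI and 9.84 points in Control, and the order of the cell types was the same in both genotypes. KI minus Control was -8.32, -3.75 and 17.1 points in LT-HSC, ST-HSC and MPP. Both strands took part: in KI MPP the 11 forward positions averaged 47.4% and the 12 reverse positions 37.3%, against 9.20% and 4.74% in KI LT-HSC. All measured positions of the window lie outside the RefSeq extent of Hoxb2, whose own 51 positions averaged 2.22%, 3.39% and 3.59% in KI mice, against 1.48%, 2.72% and 3.06% in Control mice. Without this window, MPP minus LT-HSC in KI over the cluster was 2.18 points.

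**Figure D4:**
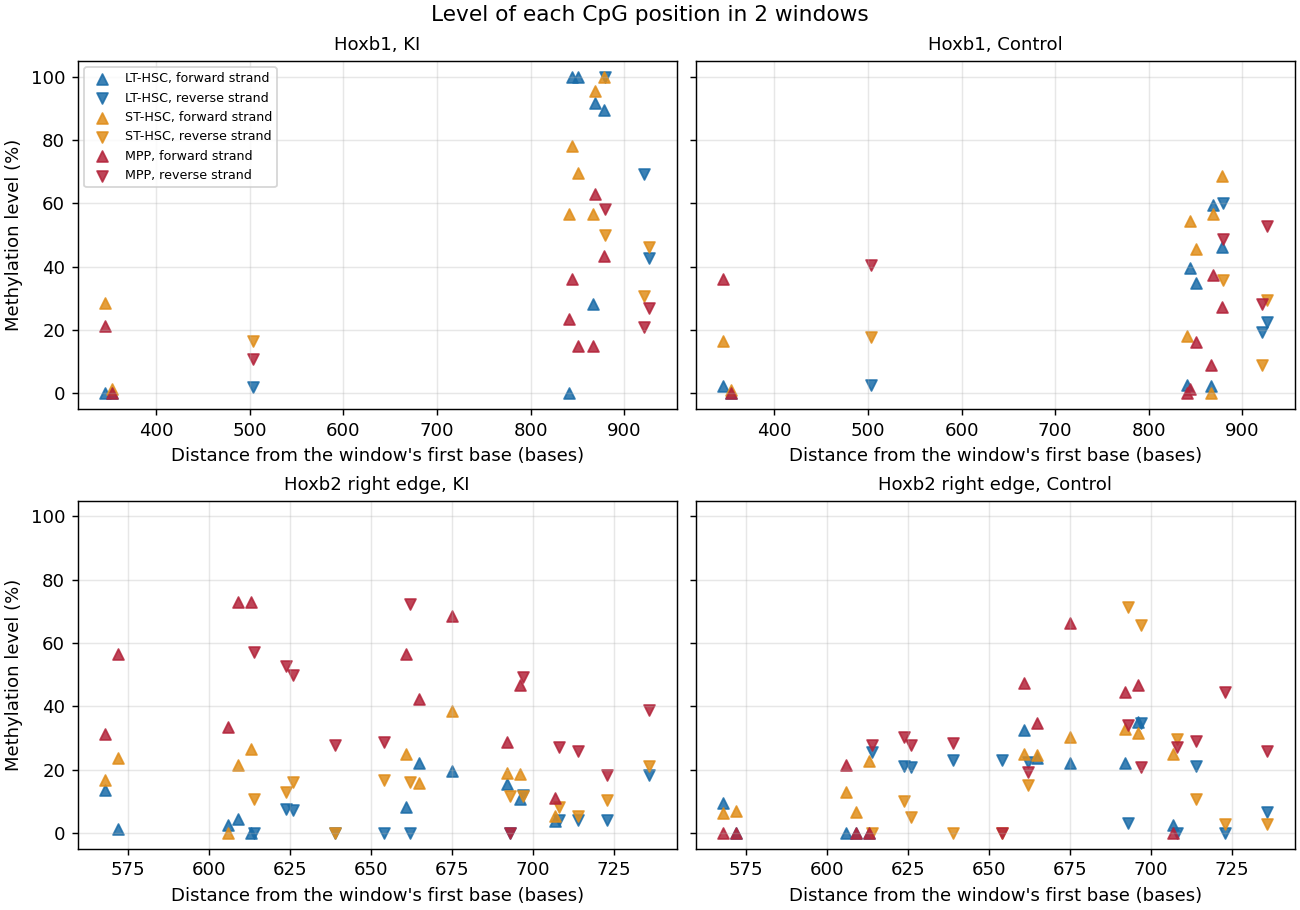
Level (%) of each shared position by distance from the first base of its window (bases), in the Hoxb1 window (top) and the window beside the right end of Hoxb2 (bottom), KI left and Control right, with colours for cell type and triangles up or down for the forward or reverse strand. In Hoxb1 the KI LT-HSC positions at the right end reach 100%, and beside Hoxb2 the KI MPP positions reach 73.0%.

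In the Gm51876 window (chr11:96269001-96270000), whose 5 positions are those in capitals in the promoter shown above, the genotype difference turned with the cell type. KI minus Control was 3.78, 35.7 and -14.1 points in LT-HSC, ST-HSC and MPP. The position 75 bases before the start stood at 79.3% in KI ST-HSC, against 26.5% in Control ST-HSC. Coverage in Control MPP was 14 to 17 reads per position.

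**Figure D5:**
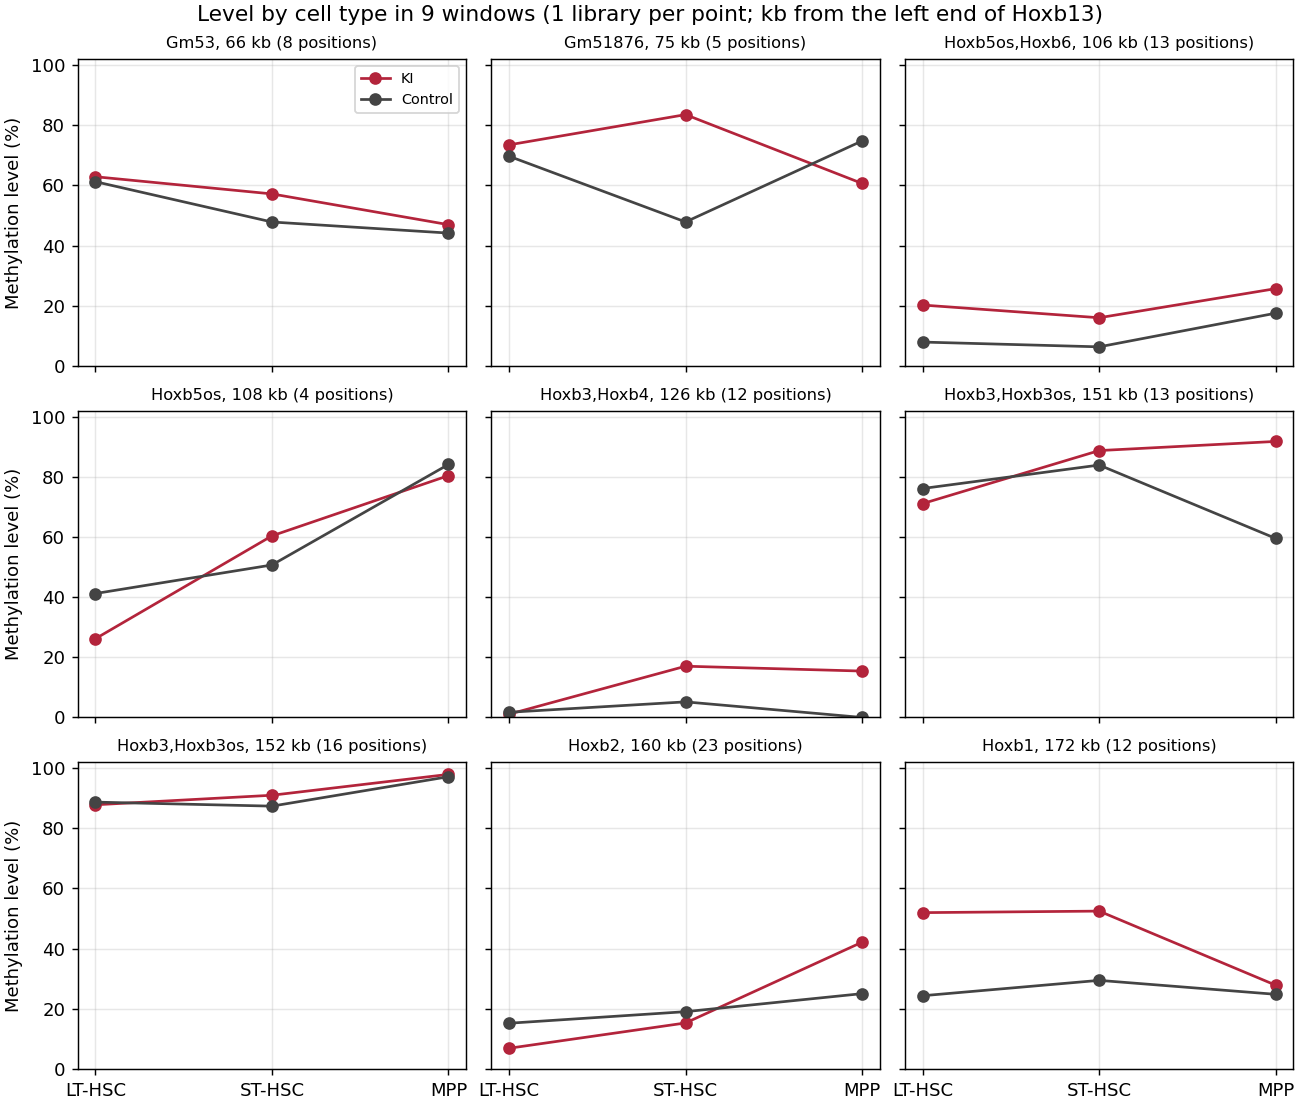
Mean level (%) in LT-HSC, ST-HSC and MPP for 9 windows, KI in red and Control in grey, 1 library per point; titles give the distance from the left end of Hoxb13 in kb and the number of positions. The Hoxb5os window climbs along the cell types in both genotypes to 80.4 and 84.1%, and the Gm53 window goes down in both to 47.0 and 44.2%.

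Genes that work with HOX proteins or regulate Hox clusters (Meis and Pbx partners, MLL and Polycomb subunits and others) were looked at by the 1 kb window at their start. Of 38 listed, 28 were in the promoter table and 22 had a window with at least 5 positions. None of the 22 differed by 10 points in any of the comparisons. Of all 25123 windows, 0.665 to 5.44% did so, depending on the comparison and direction. The median level of the 22 was 2.68%, which left little room for a fall of 10 points. Their count therefore says little about lower levels. The highest level was 10.6%, at Men1, a partner of the MLL histone methyltransferase, in KI MPP, against 6.02% in Control MPP. The median KI minus Control over the 22 was 0.369 points and the median MPP minus LT-HSC 0.796 points, against 0.582 and 0.465 over all windows.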

How the data were processed

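Per the submitters' processing notes, reads were handled with Bismark 0.10.0, SAMtools 1.0 and methylKit 0.9.1 on mm10. How those tools were set, whether duplicates were removed and how complete the conversion was: not given in the sources used here. Per the file headers, each row is 1 cytosine on 1 strand, with its coverage as a count (10 or more in all files) and the percent of its reads showing C or T, deposited without further scaling. Level times coverage gave whole read numbers at 100% of positions, within 0.01% of the coverage, and these were used in the tests. Libraries were made from 10 ng DNA.

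Means are unweighted over shared positions, strands apart. Fisher exact tests, windows of 1 kb, limma 3.58.1 (R 4.3.3, prior count 1, variance trend, cell type or genotype as block) and Benjamini-Hochberg adjustment ran over the whole genome, and cluster rows are printed. SciPy 1.17.1 gave the exact tests. The scripts were checked on simulated data. Genes and promoters came from RefSeq GRCm38.p6, and 8634 of 8634 positions in chromosome 11 promoters fell on the expected base. Exons and introns were not analysed here.

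Named were every annotated gene with a position, each window 10 points apart by the stated rules, the 5 windows with the widest mean difference for either comparison, sign ignored, and CpGs called alike in at least 2 cell types or both genotypes. The members and lists were chosen with earlier results of these data known. Alternatives changed coverage, strands, weights, thresholds, windows, pairing and the limma model.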

Additional observations from a re-analysis of the deposited data

Results flagged for a closer look

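Of the windows with at least 5 positions, 2 had differences of at least 10 points in opposite directions between cell types or genotypes, with no test of the difference since each group was 1 library. The share of all windows with such differences is not given here, so whether this count is unusual cannot be told. Smaller differences changed sign in other windows too, such as the one beside Hoxb2. In the Gm51876 promoter window, the KI minus Control difference was 3.78, 35.7 and -14.1 points in LT-HSC, ST-HSC and MPP. Coverage there was 78 reads over 5 positions in Control MPP and 136 in KI ST-HSC. In the Hoxb3 and Hoxb3os window at chr11:96345001-96346000, MPP minus LT-HSC was 20.7 points in KI and -16.6 points in Control. Its forward-strand run of 11 positions averaged 90.4% in KI MPP and 54.4% in Control MPP, and its 2 reverse-strand positions averaged 99% in KI MPP and 87.5% in Control MPP. Whether these differences recur in other pools of mice was not tested.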

How the results depend on the processing

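The sign of the mean difference between KI and Control in LT-HSC was not stable: it was -2.87 points weighted by reads and -0.251 without the Hoxb1 window. The mean over the 3 cell types was -0.0948 weighted. The other differences kept their sign and changed in size. KI minus Control in ST-HSC was 1.07 points at 20 or more reads and 1.92 weighted. In MPP it was 0.517, 0.662 and, without the Hoxb3 window at 96345001, 1.47. MPP minus LT-HSC in KI was 2.08 at 20 or more reads, 7.09 weighted and 2.18 without the window beside Hoxb2. In Control it was 3.56 weighted and 2.72 without the Hoxb3 window. Leaving out windows was chosen after seeing the data.

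With every position thinned to 10 reads, 0 were called in all 5 comparisons, a depth that leaves little room for any call. At 20 or more reads (239 positions), 13 were called for KI against Control in LT-HSC, 3 in ST-HSC, 9 in MPP, 15 for MPP against LT-HSC in KI and 21 in Control. At 30 or more reads (141 positions, added after seeing the data), the counts were 6 in LT-HSC, 2 in ST-HSC, 5 in MPP, 5 between stages in KI and 13 in Control. A difference of at least 10 points gave 35 in LT-HSC and 49 in MPP. A difference of at least 40 points gave 8 in LT-HSC, 13 in MPP, 16 between stages in KI and 20 in Control. None of these counts has a share of all positions beside it, so they describe the cluster alone.

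For windows, the Gm53 count became 0 at 20 points, and with at least 10 positions or 20 or more reads, where that window had too few positions to enter. MPP was higher in both genotypes in 1 window at 20 or more reads and in 1 weighted by reads (beside Hoxb2), in 1 with windows shifted by 500 bases (in Hoxb3, against 367 of 25072 windows genome-wide) and in 4 at 5 points (876 of 25123). KI was higher in all 3 cell types in 1 window at 5 points (Hoxb6, though not on its forward strand alone, against 561 of 25123). By limma, 0 Hoxb windows passed under any alternative, with lowest adjusted p from 0.384 to 0.774. The labels carry no replicate number, and the limma fit was paired by cell type or genotype. Without that block 0 Hoxb windows passed, with 2 and 4 at an unadjusted p under 0.05 for KI and for MPP. The cause of these changes was not tested, beyond the smaller number of positions or reads that an alternative leaves. The positions read cover 41 of 185 windows, so most of the cluster is not described.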
